A study of Pinus tabuliformis with 21 samples.

Results

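The early UV-B pulse gene models of Pinus tabuliformis were chosen for levels far above the control in foliage after 1 d of UV-B. After 7 d of UV-B they had to lie under an upper limit close to the control level, with no lower limit. They were chosen from levels in CPM, each count divided by the library's total and scaled to a common library size. For each treated group, the log2 difference is log2(mean CPM + 1) of its 3 libraries minus the same value of the 3 control libraries. Among gene models with a log2 difference under 1 in UV-B at 3 d, under 0.5 in UV-B at 7 d and under 1 in UV-C at 1 d, the 100 with the largest log2 difference in UV-B at 1 d were taken. They are 100 of 84525 gene models in the table, of which 39403 had at least 1 count in the 21 libraries and 79396 met the 3 upper limits. Values of UV-B at 1, 3 and 7 d, UV-C at 1 d and the control therefore chose the members, and differences among these 5 groups are described without a test. Tests are given for UV-C at 3 and 7 d. In 4 of the 5 comparisons tested the other group is one that chose the members, which is said at each of them, and the contrast of UV-C at 7 d with UV-C at 3 d is the one free of such a group. Even there, 42 of the 88 members tested had counts enough for a test only through other groups.

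The study irradiated potted seedlings of this northern Chinese pine, aged 2.5 years, with UV-B or UV-C lamps added to the greenhouse light, to compare what the bands change in the foliage. UV-B spanned 280 to 320 nm with its peak at 306 nm at 280 µW/cm2, and UV-C spanned 230 to 270 nm with its peak at 254 nm at 28 µW/cm2, so band and intensity differ together. The groups are UV-B for 1, 3 and 7 d, UV-C for 1, 3 and 7 d, and control seedlings given no UV and taken at 0 h, with 3 libraries of poly(A) RNA each. All groups share the species, the age and the base lighting, and the protocol assigned 20 of 180 seedlings to each group without saying which of them, or how many, went into a library. The labels do not say that replicates came from separate seedlings, so a p-value reflects the spread of these libraries only, which may be technical. No unirradiated group of a later time was analysed here, so irradiation and time since the start cannot be told apart in any comparison with the control.

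As background, plants sense UV-B through the photoreceptor UVR8, which on absorbing it comes apart from a dimer into single proteins and binds the ubiquitin ligase COP1, so that transcription factors such as HY5 build up. RUP proteins, which this pathway induces, return UVR8 to its dimer, so the signal restrains itself, as worked out in Arabidopsis. Shorter-wave UV also damages DNA and sets off reactive oxygen and stress responses. The count table pairs no identifier with a gene name or a sequence, so no role is given to any member, no list of pathway genes or cell-type markers could be matched, and the label of foliage could not be checked against markers.

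Library totals ran between 6177212 and 8560163 counts, so 1 CPM corresponds to 6.18 to 8.56 counts. Libraries of UV-C at 3 d were the least alike: the mean correlation with the other libraries of the group was 0.923 for replicate 3 and 0.936 for replicate 2, against 0.984 to 0.987 in the control. Replicate 3 of UV-C at 3 d and replicate 3 of UV-C at 1 d both held low levels of the members, and counts and calls that rest on UV-C at 3 d are given with values without single libraries. The part of library quality in these differences was not tested.

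After 1 d of UV-B the members together took 0.770, 1.35 and 0.980% of all counts in replicates 1 to 3, against 0.258, 0.209 and 0.332% in the control. The mean share was 1.03 ± 0.294% in UV-B at 1 d and 0.266 ± 0.0616% in the control (SD, n = 3 each), and the groups did not overlap. After 3 d of UV-B the share was 0.338, 0.365 and 0.466%, and after 7 d it was 0.348, 0.313 and 0.233%, where it overlapped the control. UV-C gave 0.386, 0.453 and 0.270% at 1 d, then 0.435, 0.658 and 0.305% at 3 d, then 0.188, 0.242 and 0.236% at 7 d. Under UV-C the highest single library was thus replicate 2 at 3 d, a group that the choice of members did not use, and it stayed under every library of UV-B at 1 d. In bulk foliage, fewer cells of a type and less RNA per cell cannot be told apart.

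**Figure D1:**
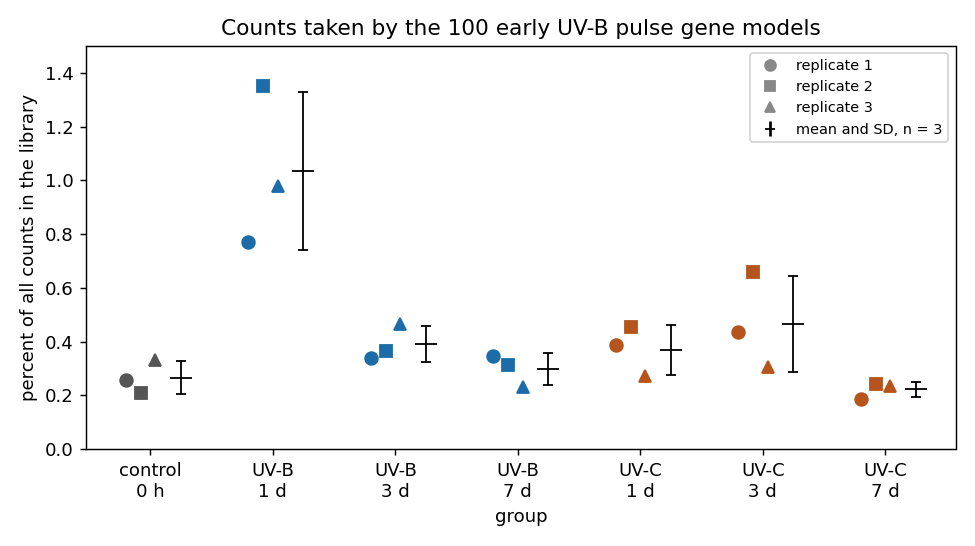
Percent of all counts in each library that fell on the 100 members (vertical axis, from 0), by group on the horizontal axis, with replicates 1 to 3 as circles, squares and triangles and the mean and SD of 3 libraries beside them. The 3 libraries of UV-B at 1 d lie between 0.770 and 1.35%, and UV-C at 3 d spreads between 0.305 and 0.658%.

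A few gene models carried most of these counts. CPM is not corrected for gene length, so it ranks counts and not transcript numbers. The 5 members with the highest CPM made up 60.5% of the members' counts in UV-B at 1 d, and the first of them alone 23.9%. Without those 5 the share was still 0.408 ± 0.124% in UV-B at 1 d and 0.104 ± 0.0276% in the control (SD, n = 3 each). The same order held at the other end of the range: the median member stood at 5.36, 15.7 and 7.24 CPM in the libraries of UV-B at 1 d, against 0.732, 0.671 and 0.992 CPM in the control. Between 0 and 5 members were at 0 counts in a library of UV-B at 1 d, against 27 to 32 in a control library.

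The log2 difference in UV-B at 1 d ran between 1.69 and 3.80 over the 100 members, with a median of 1.99. It was at least 2 in 50 members and at least 3 in 6. In UV-B at 3 d the median was 0.60 and the highest 1.00, and in UV-B at 7 d the median was 0.06, with a range of −2.35 to 0.48. In UV-B at 7 d 5 members were at or under −1, beside 1.60% of the gene models with a count. In UV-C at 1 d the median was 0.53, with a range of −1.28 to 0.99. Medians over the 18265 gene models that passed the filter on low counts were 0.07, 0.09 and 0.06 after 1, 3 and 7 d of UV-B, and 0.09 in UV-C at 1 d. Expressed as a share of its own level in UV-B at 1 d, the median member stood at 24.2% in UV-B at 3 d, 11.6% in UV-B at 7 d and 21.4% in UV-C at 1 d.

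The choice has sharp edges in a continuous range. On that scale, the last 3 members in UV-B at 1 d stood at 1.693, 1.692 and 1.691, and the next 3 gene models within the limits at 1.688, 1.688 and 1.687. In all, 1342 gene models reached the value of the last member in UV-B at 1 d, so most gene models that stood this high at 1 d were above a limit in another group. The limit at UV-B 3 d alone kept out 73, the limit at UV-B 7 d alone 28, and the limit at UV-C 1 d alone 86. The highest member and the lowest gene model kept out by one limit alone were at 0.9998 and 1.0002 in UV-B at 3 d, at 0.480 and 0.509 in UV-B at 7 d, and at 0.987 and 1.004 in UV-C at 1 d. The members are therefore the end of a range and not a group set apart from its neighbours.

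**Figure D2:**
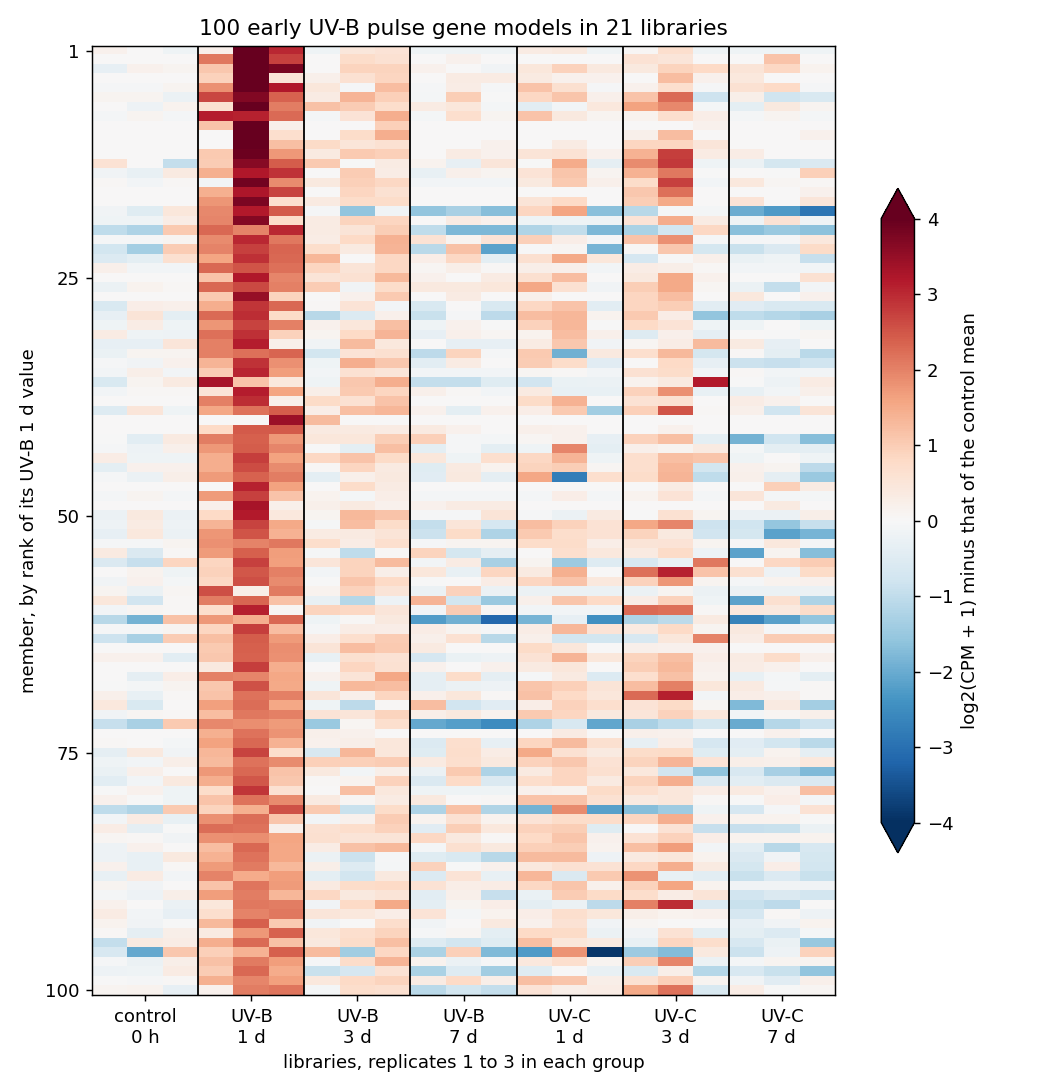
Each row is 1 of the 100 members, ordered by its rank in UV-B at 1 d (vertical axis), each column 1 of 21 libraries grouped by treatment (horizontal axis), and colour the log2(CPM + 1) minus that of the control mean, cut off at −4 and 4. Red concentrates in UV-B at 1 d and is deepest in its replicate 2, and a paler band appears in replicates 1 and 2 of UV-C at 3 d.

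Low counts made up much of the set. In the control, 18 members had 0 counts, 35 more had a mean under 1 CPM, 25 lay between 1 and 10 CPM, 14 between 10 and 100 CPM, and 8 at 100 CPM or more. The median log2 difference in UV-B at 1 d was 2.34 in the class at 0 counts, 2.07, 1.98 and 1.81 in the next 3 classes, and 1.85 in the class at 100 CPM or more. The 18 members with 0 control counts had 55 to 220 counts over the libraries of UV-B at 1 d. By counts pooled over the group, against a floor of 3 counts over the control group, they were at least 19.9-fold to at least 79.8-fold higher in UV-B at 1 d. The pooled counts rested largely on 1 library. The median of the 18 had 79.6% of its summed CPM in its highest library of UV-B at 1 d, against 43.7% in the class at 100 CPM or more. These bounds cover counting error only, as do all intervals given here.

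Replicate 2 of UV-B at 1 d carried the largest value for most members. It was the highest of the 3 libraries for 81 of 100 members, replicate 3 for 12 and replicate 1 for 7, whereas over the gene models tested replicate 2 was highest for 31.7%. The median member had 50.9% of its summed CPM in its highest library of that group, against 40.6% over the gene models tested. For 7 of 100 members over 90% came from 1 library, beside 169 of the 18215 gene models tested that had a count in the group. Replicate 2 was also highest in UV-C at 3 d for 71 of 98 members with a count, in UV-C at 1 d for 58 of 90 and in UV-B at 7 d for 51 of 87, beside 37.9, 34.3 and 40.7% of the gene models tested. It was highest in UV-B at 3 d for 31 of 100, in UV-C at 7 d for 31 of 92 and in the control for 27 of 82. The shares over the gene models tested were 33.5, 33.8 and 39.2% there. What gave replicate 2 its higher values in some groups was not tested.

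All 3 libraries of UV-B at 1 d lay above all 3 control libraries for 91 members, beside 15.5% of the gene models with a count, which is a comparison the choice used. In UV-B at 3 d the same held for 33 members, beside a background of 15.8%. In UV-B at 7 d, 7 members lay wholly above the control and 7 wholly below it, beside 13.5% and 10.1%. In UV-C at 1 d, 25 members lay wholly above the control and 0 wholly below it, beside 11.1% and 6.27%.

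Measured in libraries that had no part in choosing them, gene models picked by the same rule stood lower than in the libraries that chose them in some cases and higher in others. When replicate number 1, 2 or 3 was left out of all 5 groups and the rule was applied to the others, 57, 42 and 54 of the 100 chosen were members. In the left-out libraries their median log2 difference in UV-B at 1 d was 1.37, 2.35 and 1.30, against 2.20, 1.72 and 2.16 in the libraries that chose them. It was at least 1 for 62, 88 and 62 of 100, beside 7.18, 8.92 and 7.70% of the gene models with a count. In groups that the rule held under a limit, some of the chosen also reached 1 in the left-out libraries. In UV-B at 3 d these were 16, 32 and 37 of 100, beside 5.49, 7.67 and 7.90%. In UV-B at 7 d they were 3, 23 and 5, beside 4.25, 5.92 and 4.93%. In UV-C at 1 d they were 38, 46 and 4, beside 5.40, 5.84 and 2.97%. In the left-out libraries of UV-B at 7 d the medians were 0, 0.34 and 0, and in those of UV-C at 1 d they were 0.65, 0.95 and 0. Left-out replicate 3 of UV-B at 3 d gave 0.83, against 0.32 for replicate 1 and 0.64 for replicate 2.

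PITA_000060512-RA had the largest log2 difference in UV-B at 1 d. It was at 0.302, 35.9 and 8.11 CPM in the 3 libraries of UV-B at 1 d, against 0.266, 0.134 and 0 CPM in the control. Replicate 2 held most of these counts, and replicate 1 was close to the control. It was at 0, 0.542 and 0.663 CPM in UV-B at 3 d and at 0 in all libraries of UV-B at 7 d. UV-C gave 0.430, 0.50 and 0 CPM at 1 d, 0.162, 0.806 and 0 CPM at 3 d, and 0 in all libraries at 7 d. With 332 counts in UV-B at 1 d and 3 in the control, the ratio of pooled levels was 120, with an exact (Clopper-Pearson) 95% interval of 40.8 to 587 that covers counting error only. This gene model is 1 of 12 members that did not pass the filter on low counts, so it has no test in any group.

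PITA_000004475-RA had the highest CPM of the members and rank 89 by its log2 difference. It was at 1634, 3313 and 2455 CPM in UV-B at 1 d, against 802, 678 and 757 CPM in the control. All 3 libraries of UV-B at 1 d lay above the control, and replicate 2 was the highest. UV-B at 3 d gave 948, 1253 and 1300 CPM and UV-B at 7 d 1110, 902 and 911 CPM. These libraries all still lay above the highest control library.

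**Figure D3:**
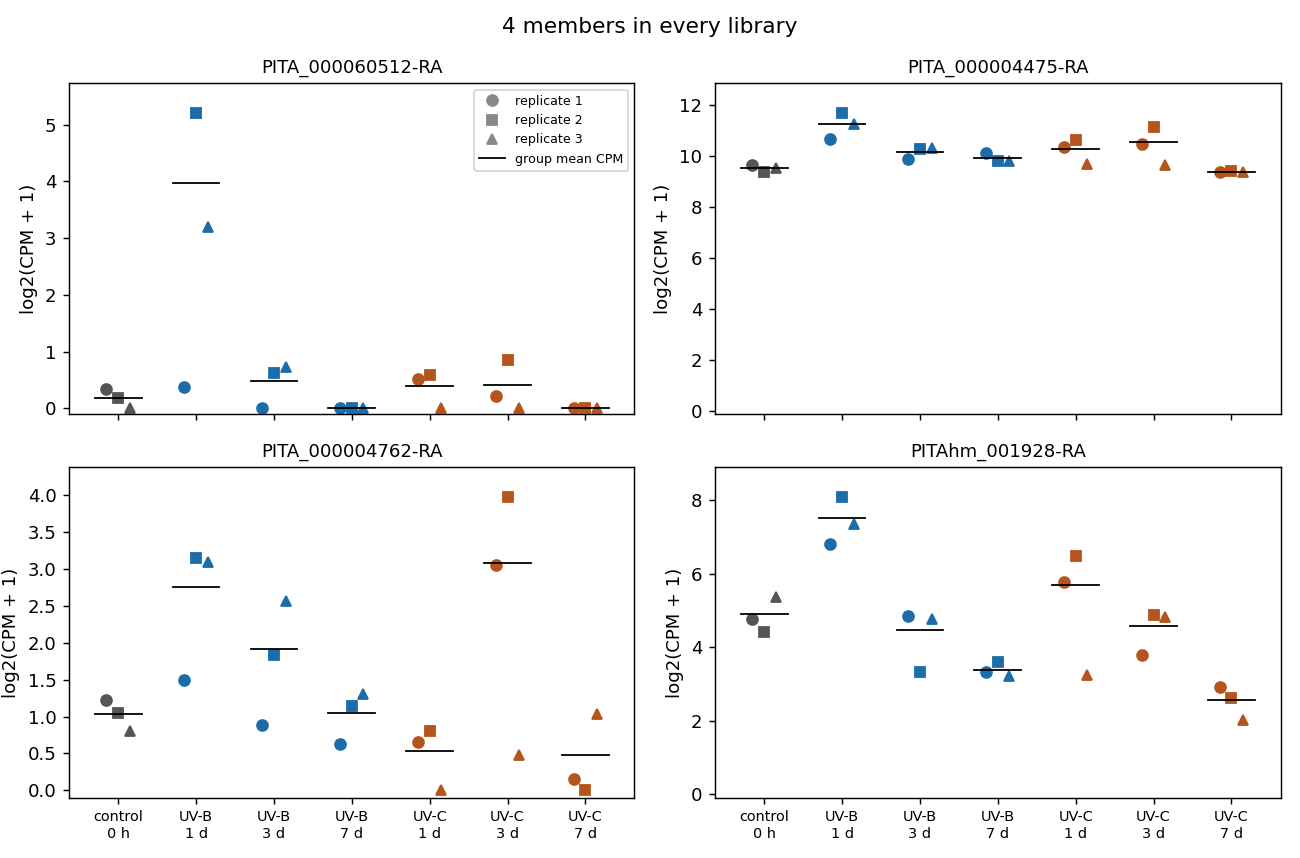
log2(CPM + 1) of 4 members (vertical axes, one panel per gene model) in every library by group (horizontal axes), with replicates 1 to 3 as circles, squares and triangles and a line at the log2 of the group's mean CPM + 1. PITA_000060512-RA is high in 2 libraries of UV-B at 1 d, PITA_000004475-RA and PITA_000004762-RA have a high replicate 2 in UV-C at 3 d, and PITAhm_001928-RA is lowest in UV-C at 7 d.

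UV-C at 3 and 7 d had no part in the choice of members, but the control libraries did. The choice favoured low control levels, so an upward direction from the control is partly fixed and the counts below are a description. The 18 members with 0 control counts could not lie below the control. In UV-C at 3 d, 86 members had a mean above the control, 12 below it and 2 equal to it, beside 54.4% above and 45.5% below over the gene models tested. The median log2 difference was 0.58, against 0.05 over the gene models tested. It was at least 1 for 23 members, beside 5.63% of the gene models with a count and 11.8% of those tested. It was at or under −1 for 0, beside 1.57 and 3.21%. In UV-C at 7 d the median was 0, with 46 members above the control and 49 below it, beside 49.2 and 50.6% of the gene models tested. None reached 1 there, beside 2.62% of the gene models with a count and 5.63% of those tested. At or under −1 were 9 members, beside 1.52 and 3.14%. The median member's level was 27.2% of its own level in UV-B at 1 d in UV-C at 3 d, and 6.47% in UV-C at 7 d. For 3 members, at ranks 56, 69 and 91, the mean in UV-C at 3 d was above that in UV-B at 1 d.

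**Figure D4:**
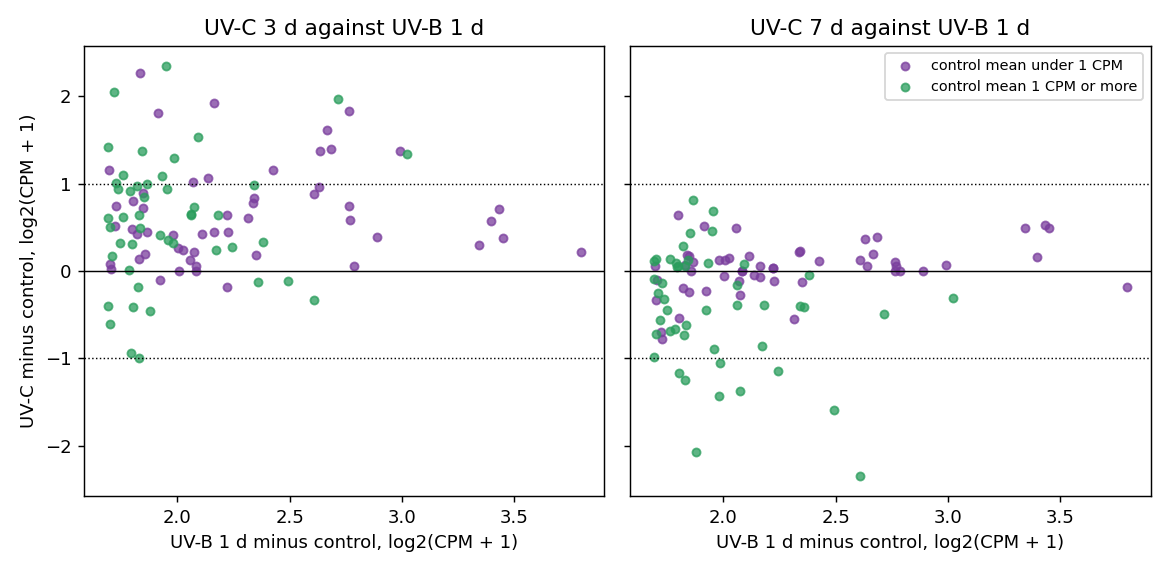
log2 difference from the control in UV-C (vertical axes; left panel 3 d, right panel 7 d) against the log2 difference in UV-B at 1 d (horizontal axes) for the 100 members, in purple where the control mean is under 1 CPM (53 members) and in green where it is 1 CPM or more. In UV-C at 3 d 23 members lie at or above 1, and in UV-C at 7 d 0 do and 9 lie at or under −1.

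The libraries of UV-C at 3 d differed in this. Replicate 1 was above the control mean for 78 members, replicate 2 for 87 and replicate 3 for 47. Over the gene models tested these shares were 51.2, 51.0 and 54.7%. In UV-C at 1 d, a group the choice held under a limit, replicate 1 was above the control mean for 72 members, replicate 2 for 76 and replicate 3 for 47. There the shares over the gene models tested were 59.0, 54.6 and 54.8%.

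The comparison of UV-C at 3 d with the control shares its control libraries with the choice of members, which favoured low control levels, so an upward direction is partly fixed and the counts are a description. Of the 88 members tested 13 were called higher and 0 lower (edgeR quasi-likelihood F-test, Benjamini-Hochberg adjusted p under 0.05 over all gene models tested). The background was 15.2% called higher and 10.6% called lower, so 13 of 88, or 14.8%, is near the share of all gene models. At an unadjusted p under 0.05 the counts were 35 higher and 0 lower, beside 21.4% and 16.7%. DESeq2 called 27 higher and 0 lower, beside 17.4% and 11.5%. The median log2 fold change of the members tested was 1.12, or 1.08 with gene models at 0 counts in a group set at their bound, against 0.02 over all gene models tested. All 3 libraries of UV-C at 3 d lay above the control for 22 members, beside 12.1%, and below it for 0, beside 9.52%. Without replicate 3 of UV-C at 3 d 34 members were called higher, beside 16.8% of gene models, without its replicate 1 the count was 6, beside 11.9%, and without its replicate 2 it was 2, beside 7.15%. Without replicate 1, 2 or 3 of the control it was 5, 4 and 5, beside 9.23, 8.76 and 10.2%. These fits without a library passed 95 to 97 members through the filter.

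Of the 13 called, 8 had more than 3 control counts, with log2 fold changes between 0.59 and 4.33. The 3 with 0 control counts were at least 6.52-fold to at least 19.9-fold higher in UV-C at 3 d against a floor of 3 counts over the control group. The remaining 2, with 1 and 2 control counts, had ratios of 30.4 (exact 95% interval 5.03 to 1245) and 31.0 (8.19 to 262).

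PITA_000004475-RA was at 1423, 2250 and 820 CPM in UV-C at 3 d, against 802, 678 and 757 CPM in the control. Replicate 3 lay just above the highest control library. The log2 fold change was 0.96 ± 0.303 (SE), and it was 0.52 without replicate 2 of UV-C at 3 d and 1.23 without its replicate 3.

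The member at rank 56 was at 13.8, 26.2 and 6.08 CPM in UV-C at 3 d, against 2.26, 2.55 and 1.86 CPM in the control, and the groups did not overlap. Its log2 fold change was 2.73 ± 0.615 (SE), and between 2.08 and 3.10 without any 1 library of either group. In UV-B at 1 d it had been at 5.13, 17.0 and 12.2 CPM, and in UV-C at 7 d it was at 3.97, 1.77 and 4.50 CPM. The member at rank 69 was at 4.86, 9.54 and 0.132 CPM in UV-C at 3 d, against 0.399, 0 and 0.248 CPM in the control. Its replicate 3 lay within the control range, and its log2 fold change was 4.33, or 3.33 to 4.99 without any 1 library of either group.

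The contrast of UV-C at 7 d with UV-C at 3 d is the one comparison in which neither group chose the members. Of the 88 members tested 12 fell and none rose, beside 4.63% called lower and 3.91% called higher among all 18265 gene models tested (edgeR, Benjamini-Hochberg adjusted p under 0.05). That is 13.6% of the members tested. At an unadjusted p under 0.05 the counts were 41 lower and 0 higher, beside 15.8% and 11.8%. DESeq2 called 22 lower and 0 higher, beside 8.49% and 6.39%. The log2 fold changes of the 12 lay between −4.13 and −1.07 with a median of −2.09, and their adjusted p between 0.00876 and 0.0472. As a description, the fitted fold change was negative for 82 of the 88 and its median was −1.53, or −1.51 with gene models at 0 counts in a group set at their bound, against −0.03 over all gene models tested. Only 46 of the 88 passed a filter on these 2 groups alone, and the other 42 were tested because of other groups, among them UV-B at 1 d, where members were chosen to be high. The median was −1.14 over the 46, with 10 called, and −2.33 over the 42, with 2 called.

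The count of calls depends on single libraries of both groups. Without replicate 2 of UV-C at 3 d no member was called in edgeR, with 24 lower and 0 higher at an unadjusted p under 0.05, and 0.812% of gene models were called lower. Without its replicate 1 the count was 2, beside 2.52%, and without its replicate 3 it was 31, beside 10.5%. Without replicate 1, 2 or 3 of UV-C at 7 d it was 3 in each case, beside 1.01, 0.939 and 1.83%. A fit of these 2 groups alone called 0 of 46 members and 0 of 15720 gene models, with 22 members lower and 0 higher at an unadjusted p under 0.05.

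By mean CPM over all 100 members, UV-C at 7 d was under UV-C at 3 d for 91, above it for 8 and equal for 1, whereas 58.6% of the gene models tested were under it. Set against single libraries of UV-C at 3 d, the mean of UV-C at 7 d was under replicate 1 for 84 members, under replicate 2 for 90 and under replicate 3 for 54. The same shares over the gene models tested were 54.8, 54.1 and 55.4%. The decline was thus carried by replicates 1 and 2 of UV-C at 3 d, and against replicate 3 the members' share was that of gene models in general. All 3 libraries of UV-C at 7 d lay below UV-C at 3 d for 29 members, beside 8.88%, and above it for 0, beside 5.53%.

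**Figure D5:**
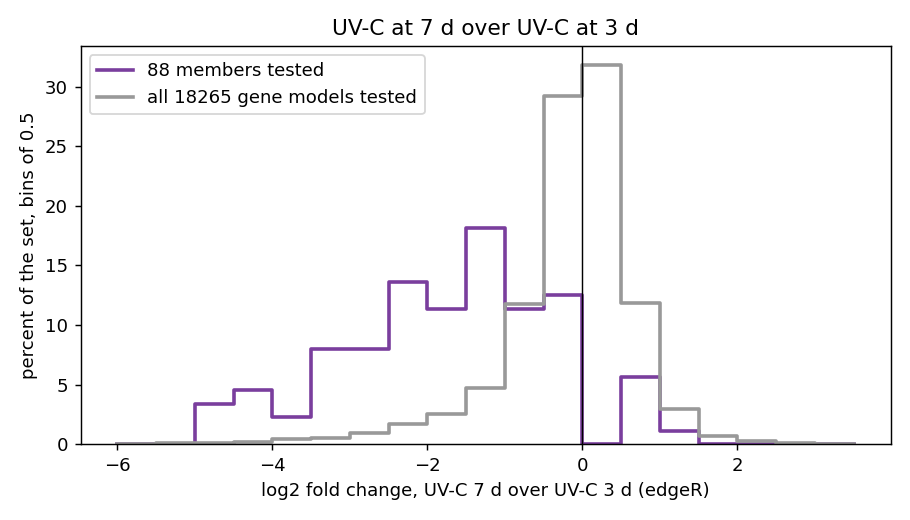
Distribution of the edgeR log2 fold change of UV-C at 7 d over UV-C at 3 d (horizontal axis, bins of 0.5) as percent of each set (vertical axis), for the 88 members tested (purple) and all 18265 gene models tested (grey), with 18 gene models outside the plotted range. The purple line lies mostly left of 0, with a median of −1.53, and the grey line is centred near 0.

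PITA_000004762-RA had the lowest fold change of the 12. It was at 0.117, 0 and 1.06 CPM in UV-C at 7 d, against 7.28, 14.8 and 0.396 CPM in UV-C at 3 d. The groups overlapped, since replicate 3 of UV-C at 3 d lay under replicate 3 of UV-C at 7 d. The log2 fold change was −4.13 ± 1.14 (SE), with an edgeR adjusted p of 0.0345. Without replicate 1 or 2 of UV-C at 3 d, or replicate 1 or 2 of UV-C at 7 d, the log2 fold change was −4.14, −3.12, −3.63 and −3.55 and the adjusted p 0.0651, 0.201, 0.121 and 0.136. Without replicate 3 of UV-C at 7 d the log2 fold change was −6.48, and the call held. The same gene model was at 1.81, 7.86 and 7.53 CPM in UV-B at 1 d, against 1.33, 1.07 and 0.744 CPM in the control. In UV-B at 3 d it was at 0.850, 2.57 and 4.90 CPM, and in UV-C at 1 d at 0.573, 0.750 and 0 CPM. Its highest levels thus stood in replicates 2 and 3 of UV-B at 1 d and replicates 1 and 2 of UV-C at 3 d. Against the control, UV-C at 3 d gave a log2 fold change of 2.77 ± 1.02 (SE), or 1.77 to 3.31 without any 1 library of either group.

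PITA_000004475-RA fell in UV-C at 7 d to 673, 682 and 673 CPM, against 1423, 2250 and 820 CPM in UV-C at 3 d, and the groups did not overlap. The log2 fold change was −1.07 ± 0.304 (SE) with an edgeR adjusted p of 0.0391. It was −0.62 with an adjusted p of 0.281 without replicate 2 of UV-C at 3 d, and the adjusted p was 0.0750 to 0.125 without its replicate 1 or any library of UV-C at 7 d, where the log2 fold change was −1.09 to −1.01. Against the control of 802, 678 and 757 CPM, UV-C at 7 d had a log2 fold change of −0.11 with an adjusted p of 0.854, and these groups overlapped.

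The member at rank 42, second of all members by CPM, had the lowest adjusted p of this contrast. It was at 80.6, 174 and 90.6 CPM in UV-C at 7 d, against 570, 696 and 231 CPM in UV-C at 3 d, with no overlap. The log2 fold change was −2.03 ± 0.403 (SE) and the edgeR adjusted p 0.00876. Without replicate 2 of UV-C at 3 d it was −1.69 with an adjusted p of 0.0540, and without any other single library it was called at −2.43 to −1.79. In UV-B at 1 d it had been at 1233, 1576 and 992 CPM. Other called members with high CPM were those at rank 85, at 41.0, 25.2 and 35.4 CPM in UV-C at 7 d against 129, 178 and 51.3 CPM in UV-C at 3 d, and at rank 87, at 94.7, 185 and 92.0 CPM against 274, 423 and 199 CPM. Neither overlapped. At rank 85 the call was lost without replicate 2 of UV-C at 3 d or replicate 2 of UV-C at 7 d, with log2 fold changes of −1.31 and −1.54. At rank 87 it held only without replicate 3 of UV-C at 3 d or replicate 2 of UV-C at 7 d, and the log2 fold change was −0.82 without replicate 2 of UV-C at 3 d. Of the 12 called here 3, at ranks 56, 69 and 89, were also called higher in UV-C at 3 d than in the control, a comparison that shares the libraries of UV-C at 3 d. At ranks 56 and 69 the call against the control held without any 1 library of either group. At rank 89 it held only without replicate 3 of UV-C at 3 d.

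UV-C at 7 d was set against the control as well, which again shares its control libraries with the choice. Here 2 of the 88 members tested fell and none rose in edgeR, beside 6.14% called lower and 6.36% called higher. At an unadjusted p under 0.05 the counts were 13 lower and 0 higher, beside 13% and 15.2%. DESeq2 called 5 lower and 0 higher, beside 7.54% and 9.41%. The median log2 fold change was −0.09 over the members tested, or −0.28 with those at 0 counts in a group set at their bound, against 0.02 over all gene models tested. By non-overlap, 14 of 100 members lay wholly below the control and 4 wholly above it, beside 11.7 and 10.1%. Without replicate 3 of the control, or without replicate 3 of UV-C at 7 d, no member was called in edgeR, beside 3.97 and 3.55% of gene models called lower. At an unadjusted p under 0.05, 5 and 10 were lower, beside 11.2 and 10.7%, and 1 each was higher, beside 12.3 and 12.6%. Without replicate 2 of the control 4 of 97 were called lower, beside 2.85%. Without replicate 1 of the control or of UV-C at 7 d 1 of 97 was, beside 3.06 and 2.59%.

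PITAhm_001928-RA had the lower fold change of the 2. It was at 6.54, 5.17 and 3.04 CPM in UV-C at 7 d, against 26.3, 20.4 and 40.3 CPM in the control, with no overlap. The log2 fold change was −2.53 ± 0.650 (SE) with an edgeR adjusted p of 0.0177. The log2 fold change stayed near this size, at −2.21 without replicate 3 of the control and −2.77, −2.57 and −2.29 without replicate 1, 2 or 3 of UV-C at 7 d, while the adjusted p was 0.0620, 0.0515, 0.0514 and 0.0763. At 1 d of UV-B it had been at 112, 272 and 162 CPM, and at 7 d of UV-B it was at 9.06, 11.2 and 8.28 CPM, under every control library too. UV-C at 1 d gave 53.9, 89.1 and 8.42 CPM, and UV-C at 3 d 12.8, 28.3 and 27.3 CPM. The other was the member at rank 42, at 80.6, 174 and 90.6 CPM in UV-C at 7 d against 295, 222 and 384 CPM in the control, with a log2 fold change of −1.35 ± 0.396 (SE) and an edgeR adjusted p of 0.0335. Its call was lost without replicate 1 or 3 of the control or of UV-C at 7 d, at log2 fold changes of −1.36 to −1.13.

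The bands were compared directly at 3 d and at 7 d, where the UV-B group is one that the choice held under a limit, so that the counts are a description. At 3 d the median log2 fold change of UV-C over UV-B was 0.14 over the members tested, against 0.01 over all gene models tested. In edgeR 1 member was called higher and 0 lower, beside 4.54 and 4.05%, with 3 higher and 3 lower at an unadjusted p under 0.05, beside 12.8% and 12%. DESeq2 called 3 higher and 0 lower, beside 6.49% and 5.77%. The one called was at rank 56, at 13.8, 26.2 and 6.08 CPM in UV-C at 3 d against 1.98, 5.01 and 2.78 CPM in UV-B at 3 d, and the groups did not overlap. Its log2 fold change was 2.26 ± 0.597 (SE) with an edgeR adjusted p of 0.0256. By non-overlap, 5 members lay wholly above UV-B and 8 wholly below it, beside 5.92 and 7.85%. Without replicate 1 or 2 of UV-C at 3 d, or replicate 1 or 3 of UV-B at 3 d, edgeR called none. The shares of gene models called were then 2.46 to 3.97% higher and 2.05 to 2.68% lower. At an unadjusted p under 0.05, 2 to 6 were higher, beside 10.6 to 12.2%, and 0 to 4 lower, beside 9.61 to 10.5%. Without replicate 3 of UV-C at 3 d it called 4 of 97 higher, beside 3.6%.

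At 7 d the median log2 fold change of UV-C over UV-B was −0.27 over the members tested, against −0.03 over all gene models tested. With gene models at 0 counts in a group set at their bound, the members' median was −0.33. In edgeR 0 members were called higher and 1 lower, beside 3.26 and 2.83%, with 4 higher and 8 lower at an unadjusted p under 0.05, beside 10.3% and 11.4%. DESeq2 called 1 higher and 1 lower, beside 4.95% and 4.45%. The one called was at rank 42, at 80.6, 174 and 90.6 CPM in UV-C at 7 d against 587, 289 and 286 CPM in UV-B at 7 d, with no overlap. Its log2 fold change was −1.70 ± 0.399 (SE) with an edgeR adjusted p of 0.0185. By non-overlap, 7 members lay wholly above UV-B and 9 wholly below it, beside 6.42 and 10.1%. Without replicate 1 or 3 of UV-C at 7 d, or replicate 1 of UV-B at 7 d, edgeR called none. The shares of gene models called were then 1.69 to 2.32% higher and 1.07 to 2.04% lower. At an unadjusted p under 0.05, 2 or 3 were higher, beside 8.93 to 9.74%, and 6 to 11 lower, beside 8.51 to 10.4%. Without replicate 2 of UV-C at 7 d it called 2 of 97 lower, beside 1.03%.

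Of the 88 members tested, 23 were called in at least 1 of these 5 comparisons and 65 in none, which is 26.1%, beside 39.5% of all gene models tested. The 12 members that did not pass the filter had 67 to 332 counts over the libraries of UV-B at 1 d and a control mean of at most 0.171 CPM. Identifiers gave little to set the members apart: 96 began with PITA_, 3 with PITAhm_ and 1 otherwise, beside 94.1, 3.92 and 2.00% of the gene models with a count. Closely similar gene copies are common in conifers, and the handling of reads matching several of them is not given in the sources used here, so the value of a single gene model is uncertain in that respect.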

How the data were processed

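Poly(A) RNA of foliage was sequenced as read pairs of 150 bp, with reads trimmed by Trimmomatic 0.36, per the labels' protocols. The submitters' processing notes name featureCounts 1.5.3 for counting. What aligner, reference, annotation and strand setting were used is not given in the sources used here. Raw counts per gene model, without normalization, were deposited for 21 libraries in 7 groups of 3, and 0 columns belonged to no sample. Totals of 6177212 to 8560163 counts make low gene models coarse.

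CPM was each count divided by the column total. Tests used edgeR 4.0.16 under R 4.3.3 on the counts (quasi-likelihood F-test, two-sided, TMM, filterByExpr) in 1 fit of all libraries with 1 mean per group. The filter left 18265 gene models, 88 of them members, and Benjamini-Hochberg adjusted p-values run over all 18265, called under 0.05. A standard error is the log2 fold change over the root of its F statistic. The fit was tested on simulated data. Ratios with 1 to 3 counts carry exact 95% intervals, and a group at 0 counts was set at a floor of 3 counts over the group.

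The members, and every list and test, were chosen with earlier results of these data known. Gene models named by identifier follow a rule: the member with the largest log2 difference in UV-B at 1 d, then the one with the highest mean CPM there, then, among members called lower, the one with the lowest fold change in UV-C at 7 d over UV-C at 3 d and over the control. Members given by rank were chosen after their values were seen. The alternatives were DESeq2 1.42.0, other scalings and filters, a fit of 2 groups, a replicate block, other pseudocounts, group medians and leaving out single libraries. Every replicate pair differed by more than counting noise (a chi-square of 3.92 to 62.9 per degree of freedom), so each library was counted once.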

Additional observations from a re-analysis of the deposited data

Results flagged for a closer look

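Each direct contrast of the bands held a single called member. At 3 d 1 member was called, at rank 56, with a log2 fold change of 2.26 for UV-C over UV-B, and at 7 d 1 member was called, at rank 42, with a log2 fold change of −1.70. Among all gene models 4.54% were called higher and 4.05% lower at 3 d, and 3.26% higher and 2.83% lower at 7 d, so 1 of 88 members is no more than the general share. The call at rank 56 was lost without replicate 1 or 2 of UV-C or replicate 1 or 3 of UV-B at 3 d, and the call at rank 42 without replicate 1 or 3 of UV-C or replicate 1 of UV-B at 7 d. In each contrast the choice of members held the UV-B group under a limit, which favours UV-C standing above UV-B. The call at rank 56 lies on that side and the call at rank 42 on the other.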

How the results depend on the processing

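The list itself depends on the definition. Of the 100 members 54 were chosen again with a pseudocount of 0.5, 55 with a pseudocount of 2, 49 with group medians in place of means, 83 with TMM-scaled CPM and 88 among filtered gene models. Leaving out 1 library, or 1 replicate number in all groups, left 42 to 92 of them, and 41 were chosen again without any 1 of the 3 libraries of UV-B at 1 d, but 13 without any 1 of the 15 libraries the rule uses. Without a filter on low counts edgeR called 23 of 100 members lower for UV-C at 7 d over 3 d, beside 2.47% of gene models. It called 24 higher for UV-C at 3 d over the control, beside 6.51%, and 5 lower for UV-C at 7 d over the control, beside 1.9%. For UV-C over UV-B it called 3 higher at 3 d, beside 1.41%, and 1 lower at 7 d, beside 1.07%. DESeq2 called 22, 27, 5 and 3 in the first 4 comparisons, on the same sides, beside 8.49, 17.4, 7.54 and 6.49%. For UV-C over UV-B at 7 d it called 1 higher and 1 lower, beside 4.95 and 4.45%. A fit of only the groups compared called 0 of 46 members, beside 0%, then 3 of 48 higher, beside 10.4%, and 8 of 43 lower, beside 13.1%. For the bands it called 0 of 55 at 3 d, beside 0.0374% higher and 0.156% lower. At 7 d it called 1 of 42 higher and 2 of 42 lower, beside 4.64 and 3.98%. In order of the 5 comparisons, leaving out 1 library gave 0 to 31, 2 to 34, 0 to 4, 0 to 4 and 0 to 2 calls. The shares of all gene models beside them are given at each comparison above. The cause was not tested. Counts under other scalings and a CPM filter stayed within 1.5 times. Over all 21 pairs of groups, correlations of same-numbered deviations ran between −0.388 and 0.413, and in 0 pairs were all 3 over 0.1. The highest, 0.413, was between replicate 2 of UV-B at 1 d and replicate 2 of UV-C at 3 d. A factor acting on 1 replicate number only would not meet this rule, and such a factor was not tested. With the replicate block the calls were 10 lower, 13 higher, 2 lower, 1 higher and 1 lower, beside 4.27, 14.5, 6, 4.3 and 2.55%.

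The median log2 difference of the members, with alternatives chosen after seeing the data, was 0.32 to 0.67 in UV-C at 3 d and −0.07 to 0 in UV-C at 7 d when 1 library of the UV-C group was left out. Across the alternatives for the 3 named gene models that were tested, 95 values stayed on their side of the threshold, 20 lost and 8 gained the call, and none changed direction. Low counts limit 53 members under 1 CPM in the control.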

Other observations

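At ranks 18, 20, 61 and 72 the log2 difference was −1 or lower in both UV-B and UV-C at 7 d. Singly, 5 members met this in UV-B and 9 in UV-C, beside 1.60 and 1.52% of the gene models with a count. The share of all gene models that met both was not worked out. Both differences use the same control libraries, and the choice set no lower limit in UV-B at 7 d. Except at rank 18, the control value rests on replicate 3. The member at rank 61 was at 13.7, 19.9 and 30.2 CPM in UV-C at 7 d, at 18.9, 23.5 and 9.61 CPM in UV-B at 7 d, and at 42.7, 24.0 and 211 CPM in the control, while UV-B at 1 d gave 312, 254 and 462 CPM. The member at rank 72 was at 0.584, 1.91 and 2.64 CPM in UV-C at 7 d, at 0.549, 0.403 and 0.133 CPM in UV-B at 7 d, and at 2.39, 1.61 and 12.3 CPM in the control. The member at rank 20 was at 0.234, 0.408 and 0.264 CPM in UV-C at 7 d, at 0.961, 0.134 and 0.133 CPM in UV-B at 7 d, and at 0.931, 0.671 and 7.19 CPM in the control. In edgeR the adjusted p of UV-C at 7 d against the control was 0.0501, 0.0590 and 0.170 at ranks 20, 61 and 72. These members were picked out after their values were seen.

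Among the members, 2 pairs had consecutive identifiers. In one the means were 30.5 and 13.9 CPM in UV-B at 1 d and 6.98 and 3.26 CPM in the control. In the other the means were 32.2 and 2.79 CPM in UV-B at 1 d and 8.60 and 0.0413 CPM in the control. All members stood higher in UV-B at 1 d by the choice, and such pairs were not counted among other gene models. Whether consecutive identifiers are neighbours in the genome is not given in the sources used here.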
